A study of Homo sapiens with 9 samples.

Results

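The mitochondrial ribosomal protein genes were taken as every gene of the deposited count table whose symbol begins with MRPL or MRPS followed by a number and, at most, a letter A, B or C. The rule found 77 of 21229 genes, 48 with MRPL symbols (large subunit) and 29 with MRPS symbols (small subunit), and used no measured value. The members lie on 21 chromosomes. None of the 77 was lost to the filter on low counts.

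Mitochondria carry their own ribosome, which translates the few messenger RNAs of mitochondrial DNA into core subunits of the respiratory chain and ATP synthase. Its rRNAs are transcribed from mitochondrial DNA, whereas all of its proteins are encoded in the nucleus, made in the cytosol and imported. Some of these proteins have bacterial homologues, and others are found only in mitochondrial ribosomes. Blood stem cells are known for low reliance on respiration and for a dependence on mitochondrial function when they divide and differentiate.

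RNA was sequenced from haematopoietic cells derived from the embryonic stem cell line H1, an established human cell line. The 3 groups of 3 libraries were control cells carrying the surface antigen CD38, control cells carrying CD90 (encoded by THY1), and CD90+ cells with GATA2 overexpression. GATA2 is a zinc finger transcription factor of blood progenitors. The sources used here do not give how it was overexpressed, for how long, or how many clones or cultures gave the libraries, so the p-values measure the spread between these libraries, which may be technical.

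GATA2 stood at 86.6, 89.5 and 85.9 CPM (counts scaled to a common library total with TMM factors, which correct for composition) in the CD90+ control libraries and at 363, 388 and 377 CPM with overexpression. In CD38+ control cells it was at 551, 576 and 581 CPM. Overexpressing CD90+ cells thus held more GATA2 RNA than CD90+ control cells and less than CD38+ cells. Among the CD38+ libraries THY1 had 0 counts in each, while its level in the 6 of CD90+ cells was 2.80 to 5.09 CPM, and PTPRC, the pan-leukocyte antigen gene, was detected in all 9. Depth was 37500192 to 47261093 counts per library, and the members received 208272 to 336290 of them.

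Sequences near the transcription start are shown first, since many members share short motifs there. RefSeq promoters (GRCh38.p14, 250 bases before to 50 after the start) matched 68 of the 77 members. The motif AAGATGGCG, a core of YY1 sites, was found on either strand in 13 member promoters (19.1%), against 1.85% of all 27305 promoters and 3.32% of the 12258 promoters of tested genes. The next lines give 30-base windows from 6 of these members with the motif in capitals, 5′ to 3′ on the gene's strand. In the first 5 it begins at transcribed base 9 to 14, and in MRPL36 it lies on the other strand, 36 bases before it.
MRPL42 (chr12:93467512-93467541, plus): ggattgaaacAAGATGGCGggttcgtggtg
MRPL46 (chr15:88467361-88467390, minus): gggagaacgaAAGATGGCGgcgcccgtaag
MRPS10 (chr6:42217833-42217862, minus): cgggaccggcAAGATGGCGgcgcggacagc
MRPS18A (chr6:43687763-43687792, minus): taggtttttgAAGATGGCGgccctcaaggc
MRPS30 (chr5:44808950-44808979, plus): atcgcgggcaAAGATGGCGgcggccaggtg
MRPL36 (chr5:1799854-1799883, minus): ccccccccgcCGCCATCTTccttcctggca

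The ETS motif CCGGAAG, bound by factors such as GABP, was in 28 member promoters (41.2%), against 10.7% of all promoters and 16.7% of those of tested genes. Its 37 matches had a median position 22 bases before the start. Windows of 5 members with large rises or falls or a named role follow, with the motif or its reverse complement in capitals.
MRPL3 (chr3:131502985-131503014, minus): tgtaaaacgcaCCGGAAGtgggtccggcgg
MRPL33 (chr2:27771700-27771729, plus): cgggccgtgccCCGGAAGcagttgttgttg
MRPL40 (chr22:19432523-19432552, plus): ggggcgcacgcCCGGAAGcggcgagggtag
MRPL16 (chr11:59810766-59810795, minus): agtgaacacaaCTTCCGGccccactgagcg
MRPS26 (chr20:3046004-3046033, plus): tccccgcgccgCTTCCGGggcacggtggcg

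The NRF1 motif, a palindrome but for its centre, was in 8 member promoters (11.8%), against 6.28% of all and 10.1% of tested-gene promoters. MRPL17 and MRPL14 are shown as members with a called rise and a high level. The GATA motif AGATAA was in 2 member promoters (2.94%), against 10.5% of all promoters and 6.25% of those of tested genes. SP1 (GGGCGGG) was in 50% of member promoters and 50.3% of tested-gene promoters. All motifs were searched on both strands, 4 members held both the YY1 and the ETS motif, and a match of letters is not a bound site.
MRPL17 (chr11:6683402-6683431, minus): aggctctgatGCGCATGCGCaaacacgttc
MRPL14 (chr6:44127412-44127441, minus): tgggcctggcGCGCAGGCGCtaggaagagg

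For the member that fell most between CD38+ and CD90+ control cells, MRPS6, the stretch from 250 to 56 bases before the RefSeq start is given (GRCh38.p14). It lies inside the longer span that GENCODE release 29 gives the gene. It held no YY1, ETS or NRF1 motif as searched here, which says only that those letters are not in this window.
MRPS6 (chr21:34073328-34073522, plus): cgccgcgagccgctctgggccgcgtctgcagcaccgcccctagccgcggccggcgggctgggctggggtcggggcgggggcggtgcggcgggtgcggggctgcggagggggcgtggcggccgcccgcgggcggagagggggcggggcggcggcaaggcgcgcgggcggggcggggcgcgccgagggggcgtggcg

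Levels per length spanned a wide range. MRPL51, a mitochondria-specific large subunit protein, was the highest at 201 CPM per kb of exon (mean of the 3 groups), followed by MRPL14 at 125, MRPS34 at 119, MRPL15 at 104 and MRPS21 at 91.1 CPM per kb. Without division by length MRPL51 had 316 to 325 CPM in CD38+ libraries, 224 to 231 CPM in CD90+ control libraries and 388 to 390 CPM with overexpression, with no overlap between groups. The lowest were MRPS17 at 2.53, MRPL46 at 1.90, MRPL38 at 0.399, MRPS24 at 0.272 and MRPL53 at 0.260 CPM per kb. The median was 34.0 CPM per kb over large subunit genes and 23.8 over small subunit genes. These ranks use the length of all annotated exons joined (the exon union). Per kb of the longest protein-coding transcript instead, MRPL51 kept rank 1, followed by MRPL33 and MRPL13. MRPL15 then ranked 11 and MRPS21 ranked 14.

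Ranked by exon union, the 5 lowest members share a property of the annotation. In GENCODE release 29, 10 members have more than 10% of their exon length inside another gene on the same strand (MRPL12, MRPL20, MRPL30, MRPL33, MRPL38, MRPL46, MRPL53, MRPS17, MRPS24 and MRPS28), and the 5 lowest are among them. Their median level was 3.21 CPM per kb, against 32.4 in the other 67. MRPS24, for instance, shares exon with the read-through gene URGCP-MRPS24, MRPL53 with CCDC142 and MRPL38 with AC087289.3. The sources used here do not give whether reads in shared exons were dropped or split, so the levels and changes of these 10 are uncertain. MRPS18B, at 2.62 CPM per kb, was low without such an overlap. Per kb of the longest transcript it ranked 73, among the 5 lowest, and MRPL46, which has an overlap, ranked 66. Named pseudogenes exist for 34 members (75 in all), and 29 members overlap exons of a gene on the opposite strand.

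**Figure D1:**
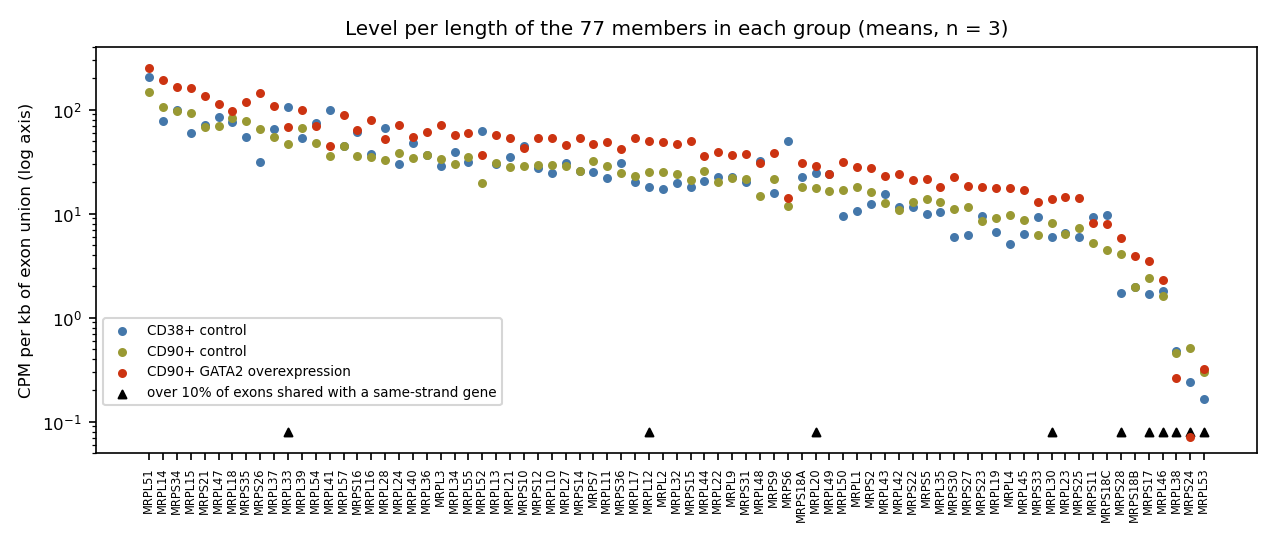
Mean level per length of each of the 77 members (x axis, ordered by the mean of the 3 groups) in CPM per kb of exon on a log axis, with colours for the groups of 3 libraries and triangles for members whose exons overlap a same-strand gene. Most red points (GATA2 overexpression) lie above the other colours, and the 5 lowest members, MRPS17 to MRPL53, all carry triangles.

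Summed over the members, expression was highest in the GATA2 overexpression cells. The members took 0.487 ± 0.00703% of all counts in CD38+ control cells, 0.576 ± 0.00128% in CD90+ control cells and 0.863 ± 0.0130% in GATA2 overexpression CD90+ cells (SD, n = 3 each). No library of any group overlapped another group. Exact two-sided permutation tests gave p = 0.1 for each pair of groups, the smallest that 3 libraries against 3 allow.

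After TMM scaling the CD38+ control libraries summed to 5553 ± 83.7 CPM, the CD90+ control libraries to 4951 ± 27.4 CPM and the GATA2 overexpression libraries to 8802 ± 118 CPM (SD, n = 3 each). The order of the 2 control groups therefore depends on the scaling, higher in CD90+ as a share of counts and lower after TMM, while the overexpressing cells were highest on both scales. Both subunits followed this order, with MRPL genes at 3812, 3312 and 5914 CPM and MRPS genes at 1741, 1639 and 2887 CPM. In bulk libraries, more cells with high levels and more RNA per cell cannot be told apart.

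**Figure D2:**
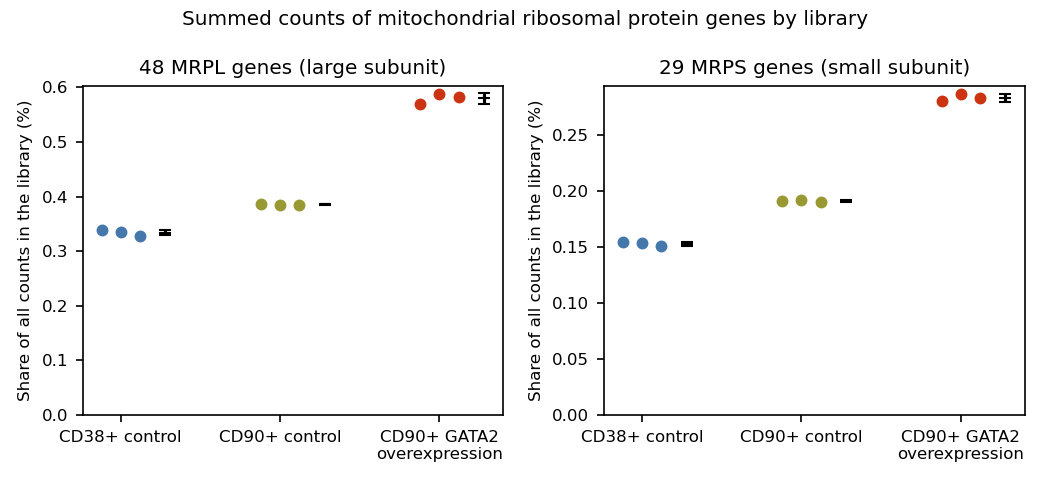
Share of each library's counts that fell on MRPL genes (left) and MRPS genes (right), in percent, with 1 point per library and the mean and SD (n = 3) beside each group. In both panels the 3 GATA2 overexpression libraries lie above all 6 control libraries.

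Nearly the whole gene set was higher in CD90+ cells with GATA2 overexpression than in CD90+ control cells. Of the 77 members 74 rose, 2 fell and 1 was not called by the quasi-likelihood test of edgeR (Benjamini-Hochberg adjusted p under 0.05, as throughout), while 38.0% of all 16232 tested genes rose and 39.6% fell (77.6% in either direction). The median log2 fold change was 0.80 over members and -0.04 over all tested genes. By libraries, the groups did not overlap in 76 members (74 all higher, 2 all lower), against 80.4% of all genes (39.3% higher, 41.1% lower). Large subunit genes rose in 46 of 48 cases (median 0.82) and small subunit genes in 28 of 29 (median 0.78). At the 2-fold mark 14 members were called higher (7.98% of all tested genes) and 1, MRPS24, lower (21.4% of all).

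The largest rise was that of MRPS15, the homologue of a bacterial protein that binds the small subunit rRNA early in assembly (ENSG00000116898.11, chromosome 1, 36455718 to 36464437, minus strand, GRCh38). It was at 61.7, 62.5 and 61.2 CPM in CD90+ control and at 145, 143 and 144 CPM in GATA2 overexpression libraries. The groups were far apart and did not overlap, a log2 fold change of 1.22 ± 0.03 (SE; 2.33-fold, adjusted p = 2.25e-15). In CD38+ cells MRPS15 was at 52.3, 54.3 and 50.2 CPM, below both CD90+ groups.

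MRPL17, whose bacterial homologue lies on the large subunit near the exit of the nascent chain (ENSG00000158042.8, chromosome 11, 6680782 to 6683401, minus strand), went from 53.9, 52.3 and 52.5 CPM to 121, 124 and 122 CPM. This was a 2.31-fold rise (adjusted p = 5.79e-15), and its promoter window with the NRF1 motif is printed above. MRPL16 (ENSG00000166902.4, chromosome 11, 59806135 to 59810872, minus strand), a homologue of bacterial L16, went from 79.0, 80.1 and 80.8 CPM to 174, 180 and 184 CPM, 2.24-fold higher (adjusted p = 5.50e-15). In both genes every overexpressing library was above every control library by more than the spread within groups.

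MRPL23, a protein of the exit region, was noisier, at 17.9, 16.2 and 23.0 CPM in control and 37.8, 54.5 and 37.3 CPM with overexpression (2.28-fold, adjusted p = 4.10e-07). It overlaps MRPL23-AS1 on the opposite strand. MRPS26, a mitochondria-specific small subunit protein (ENSG00000125901.5, chromosome 20, 3045945 to 3048254, plus strand), rose 2.23-fold (adjusted p = 6.88e-15). Its 3 CD38+ libraries stood at 33.8, 35.4 and 36.5 CPM, followed by 71.6, 71.7 and 74.6 CPM in CD90+ control cells and 159, 166 and 159 CPM with overexpression, 3 levels without overlap.

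Rises were small in some members. MRPL18, highest with overexpression and lowest in CD38+ cells, went from 118, 112 and 116 to 132, 134 and 134 CPM (log2 fold change 0.21). It is named after its value was seen. Among members highest in CD38+ cells, MRPL52 and MRPS18C rose by 0.90 and 0.85, and 2 others rose little. MRPL41, a mitochondria-specific large subunit protein, went from 46.4, 43.6 and 44.2 to 53.6, 58.5 and 57.8 CPM (log2 fold change 0.34), and MRPS6, the homologue of bacterial S6, from 51.1, 50.6 and 50.6 to 57.8, 59.7 and 63.4 CPM (0.25). Neither rise was called when scaled by library size only (0.09 and 0.00) or with a trend in exon length and GC content removed (0.04 for both). The length and GC fit also ended the calls of MRPL44 (0.07), MRPS36 (0.13), MRPS28 (0.08) and MRPS17 (0.22), and library size alone that of MRPS17 (0.31).

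Both members that fell belong to the 10 whose exons overlap another gene. MRPS24, homologue of bacterial S3 (ENSG00000062582.13, chromosome 7, 43866558 to 43869893, minus strand), had 55, 88 and 64 counts in the CD90+ control libraries and 2, 10 and 9 counts with overexpression. MRPL38, of the central protuberance, had 94, 82 and 86 counts and then 39, 33 and 36. The log2 fold changes were -2.81 (adjusted p = 1.40e-05) and -0.82 (adjusted p = 0.00469), on fewer than 100 counts per library. MRPL53, a stalk protein, had 29, 7 and 25 against 11, 14 and 23 counts and was not called (adjusted p = 0.874). Among the 67 members without such an overlap, a restriction chosen after the data were seen, 0 fell by edgeR's adjusted p, 0 at an unadjusted p under 0.05, and 0 with DESeq2 or limma voom.

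**Figure D3:**
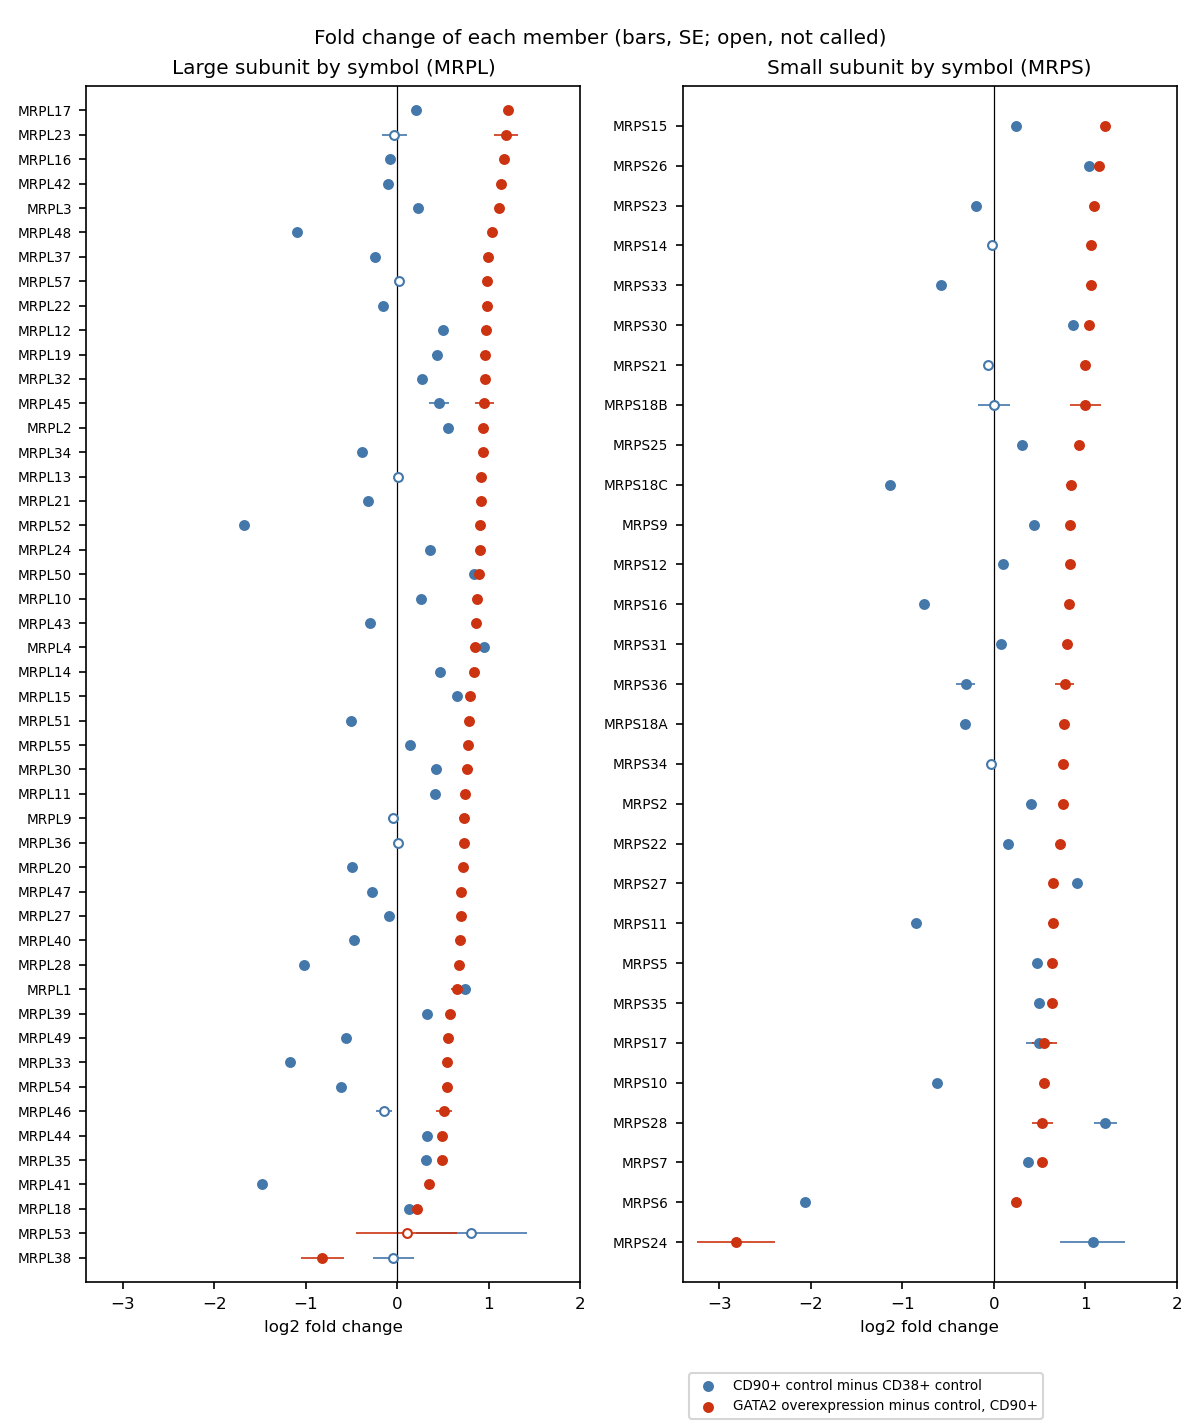
Log2 fold change of each MRPL gene (left) and MRPS gene (right) with its SE, for CD90+ control minus CD38+ control (blue) and GATA2 overexpression minus control within CD90+ cells (red), where filled points were called and open ones were not. Red points lie right of 0 for all but MRPS24 and MRPL38, whereas blue points spread from -2.06 (MRPS6) to 1.22 (MRPS28).

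CD90+ and CD38+ control cells, by contrast, differed in both directions within the gene set. In CD90+ control cells 37 members were higher, 28 lower and 12 not called (of all tested genes 80.4% were called, 41.1% higher and 39.3% lower), so the members' split was near that of all genes. The median log2 fold change was 0.02, against 0.03 over all tested genes. The groups' libraries did not overlap for 65 members (82.8% of all genes), of which 37 were all higher (42.5%) and 28 all lower (40.4%). At the 2-fold mark 3 members were called higher (22.6% of all genes) and 7 lower (13.6% of all). These counts move with scaling, to 56 higher and 14 lower when scaled by library size only, which shifts the median of all genes by a like amount (from 0.03 to 0.44) and moves the share of calls on the higher side from 51.2% to 71.2%. Upper-quartile factors gave 48 higher and 18 lower.

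MRPS6 (ENSG00000243927.5, chromosome 21, 34073224 to 34143034, plus strand) had the largest fall. It was at 212, 217 and 208 CPM in CD38+ and 51.1, 50.6 and 50.6 CPM in CD90+ control libraries, a 4.18-fold difference (log2 fold change -2.06 ± 0.03, adjusted p = 2.37e-18). The 2 groups did not overlap, and the overexpressing cells were at 57.8 to 63.4 CPM.

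MRPL52, a mitochondria-specific large subunit protein (ENSG00000172590.18, chromosome 14, 22829879 to 22835037, plus strand), went from 211, 197 and 198 CPM in CD38+ to 64.7, 61.7 and 62.5 CPM in CD90+ control cells, 3.21-fold lower (adjusted p = 2.50e-17). With GATA2 overexpression it was at 114, 121 and 118 CPM, between the 2 control groups. MRPL41 (ENSG00000182154.7, chromosome 9, 137551199 to 137552555, plus strand) went from 129, 121 and 126 CPM to 46.4, 43.6 and 44.2 CPM, 2.79-fold lower (adjusted p = 2.30e-15). MRPL33, homologue of bacterial L33, was 2.25-fold lower and MRPS18C 2.19-fold lower, and in these 4 genes, as in MRPS6, the groups did not overlap.

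The largest rises between CD38+ and CD90+ control cells were those of MRPS28, MRPS24, MRPS26, MRPL4 and MRPS27, at log2 fold changes of 1.22, 1.08, 1.04, 0.94 and 0.91. MRPL4, homologue of bacterial L4 (ENSG00000105364.13, chromosome 19, 10251901 to 10260045, plus strand), stood at 19.3, 21.1 and 21.6 CPM against 40.9, 39.9 and 38.5 CPM (adjusted p = 2.74e-11). MRPS27, a mitochondria-specific protein with pentatricopeptide repeats (ENSG00000113048.16, chromosome 5, 72219409 to 72320646, minus strand), stood at 40.1, 42.0 and 38.8 against 73.6, 79.4 and 74.0 CPM (adjusted p = 1.69e-12). The rises of MRPS28 and MRPS24 rest on few reads and overlapping exons, and that of MRPS24 was not called without CD90+ control replicate 2 (adjusted p = 0.0579). Members with no called difference included MRPS18B, MRPL36, MRPL38, MRPL13, MRPL23 and MRPS14, with log2 fold changes of -0.04 to 0.01. With library size only 5 of these 6 were called higher, namely MRPS18B (0.42), MRPL36 (0.41), MRPL13 (0.42), MRPL23 (0.38) and MRPS14 (0.39). With upper-quartile factors MRPL36 (0.27), MRPL13 (0.27) and MRPS14 (0.24) were called higher, and MRPL13 also for genes at 1 CPM in 3 libraries (0.090) and in the length and GC fit (0.078).

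**Figure D4:**
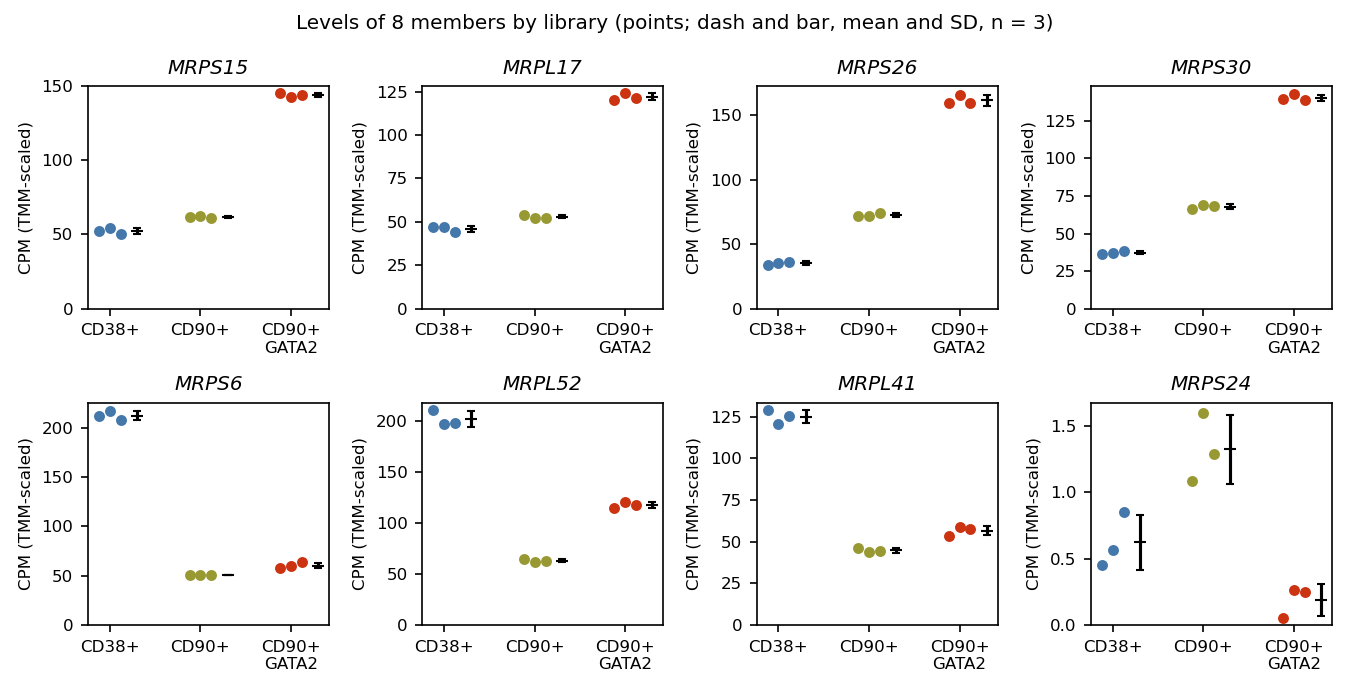
Levels in CPM (TMM-scaled) of 8 members in each library, with the mean and SD (n = 3) beside each group. MRPS15, MRPL17, MRPS26 and MRPS30 (top) are highest with GATA2 overexpression, MRPS6, MRPL52 and MRPL41 (bottom) are highest in CD38+ cells, and MRPS24, at under 2 CPM, is highest in CD90+ control cells.

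Against CD38+ control cells, the GATA2 overexpression cells had 62 members higher, 9 lower and 6 not called (of all tested genes 83.2% were called, 43.3% higher and 39.9% lower), with a median log2 fold change of 0.90 against 0.07 over all genes. This comparison shares libraries with each of the other two, so it is no separate evidence. Libraries did not overlap for 72 members (83.0% of all genes), 62 all higher (42.9%) and 10 all lower (40.0%). MRPS26 was 4.59-fold higher, MRPS30 3.77-fold and MRPL4 3.46-fold (adjusted p = 1.47e-18, 5.00e-18 and 2.65e-15). MRPS6 was 3.52-fold lower and MRPL41 2.21-fold lower (adjusted p = 7.31e-18 and 5.61e-14), and MRPS24 had a log2 fold change of -1.73. By mean level, 41 members were highest with overexpression and lowest in CD38+ cells, and 23 were highest with overexpression and lowest in CD90+ control cells. A further 11, all named here, were highest in CD38+ and lowest in CD90+ control cells (MRPL28, MRPL33, MRPL41, MRPL48, MRPL49, MRPL52, MRPL54, MRPS6, MRPS10, MRPS11 and MRPS18C). These were named after their order was seen. The order is by means alone, and some libraries overlap, as in MRPL49 (71.7 to 78.1 CPM in CD38+ and 73.6 to 74.6 CPM in overexpressing cells). MRPL54 was not called between these 2 groups by edgeR (adjusted p = 0.160). The order of the control groups also moves with scaling, and the same counts over all genes were not made.

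Members with bacterial homologues and those specific to mitochondria were compared next. Assigned by structure, 50 members belong to the large and 26 to the small subunit, with MRPS30 and MRPS18A in the large and MRPS36 in neither. Of 30 large subunit genes with bacterial homologues 17 were higher and 9 lower in CD90+ than in CD38+ control cells (median log2 fold change 0.17), while of 20 mitochondria-specific large subunit genes 5 were higher and 11 lower (median -0.19). In the small subunit the counts were 9 and 5 of 16 for bacterial homologues (median 0.17) and 6 and 2 of 10 for mitochondria-specific genes (median 0.12). With GATA2 overexpression the 4 classes rose in 30 of 30, 18 of 20, 15 of 16 and 10 of 10 cases, with medians of 0.84, 0.77, 0.71 and 0.86. Of all tested genes 41.1% were higher and 39.3% lower between control groups, and 38.0% rose and 39.6% fell with GATA2 overexpression. Counts and medians between control groups move with scaling, as the median over all members did (0.02, and 0.43 with library size only). The differences between classes were not tested.

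By position in the ribosome, members rose with GATA2 overexpression in every region listed. Since 74 of all 77 members rose, these counts do not set a region apart. Of all tested genes 38.0% rose and 39.6% fell. At the stalk that recruits translation factors, MRPL10, MRPL11, MRPL12 and MRPL54 rose and MRPL53 was not called (4 of 5, median 0.74). MRPL12 stepped up from 19.0, 17.7 and 18.7 CPM in CD38+ to 26.0, 24.7 and 27.6 CPM in CD90+ control and 49.5, 53.1 and 50.3 CPM with overexpression, though it shares exon with AC139530.2. Of 5 genes of the central protuberance 4 rose and MRPL38 fell (median 0.51). The 5 genes at the polypeptide exit all rose (median 0.95), among them MRPL45, which helps bind the ribosome to the inner membrane, at 12.6, 17.1 and 15.2 against 26.6, 30.8 and 29.4 CPM (adjusted p = 2.58e-07). In the small subunit, 7 of 8 head genes rose and MRPS24 fell (median 0.72), and all 12 body genes rose (median 0.74).

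The MRPS18 paralogues differed from one another between the control groups. MRPS18A sits in the large subunit despite its symbol, while MRPS18B and MRPS18C are small subunit proteins. MRPS18C was at 49.6, 48.5 and 43.4 CPM in CD38+ and 21.1 to 22 CPM in CD90+ control cells (log2 fold change -1.13, adjusted p = 3.70e-12). MRPS18A had a log2 fold change of -0.31 that turned to 0.10 with library size only, and MRPS18B of 0.01 (not called). All 3 rose with GATA2 overexpression, MRPS18A by a log2 fold change of 0.76, MRPS18C by 0.85, and MRPS18B from 3.69, 3.92 and 3.50 to 7.90, 7.76 and 6.58 CPM.

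Other members with known roles rose with GATA2 overexpression as well. MRPS30, also a large subunit protein by structure (ENSG00000112996.10, chromosome 5, 44808925 to 44820428, plus strand), had 36.2, 37.1 and 38.5 CPM in CD38+ cells, then 66.3, 69.2 and 68.4 CPM in CD90+ control cells and 139, 143 and 139 CPM with overexpression, with no overlap between groups. It rose 2.07-fold with overexpression (adjusted p = 1.67e-14). MRPL3, homologue of bacterial L3 near the peptidyl transferase centre, rose 2.15-fold. MRPS12, homologue of bacterial S12 at the decoding site, rose 1.79-fold, and MRPL32, which is matured by the m-AAA protease, 1.95-fold.

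Genes in which inherited variants impair mitochondrial translation rose as well, with MRPS2 at 1.70-fold, MRPS16 at 1.77-fold, MRPS22 at 1.65-fold, MRPS34 at 1.70-fold, MRPL3 as above and MRPL44 at 1.41-fold. MRPL40, encoded in the 22q11 region, rose 1.60-fold. In CD90+ against CD38+ control cells it was 1.39-fold lower, a difference of -0.06 (log2, not called) with library size only. MRPS36, which is part of the 2-oxoglutarate dehydrogenase complex rather than of the ribosome, was at 39.2, 36.6 and 37.2 against 57.3 to 75 CPM (1.71-fold, adjusted p = 2.89e-06).

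The balance of the subunits was read from the mean level per length, with members grouped by symbol. MRPS30, MRPS18A and MRPS36 thus counted as small subunit, and no ratio by structure was computed. The ratio of the large to the small subunit mean was 1.55 to 1.57 in CD38+ control, 1.385 to 1.388 in CD90+ control and 1.32 to 1.35 in GATA2 overexpression libraries, with no overlap (exact permutation p = 0.1 for each pair, the smallest possible). Ratios of medians overlapped, at 1.67 to 1.74, 1.57 to 1.74 and 1.71 to 1.84, so the order rests on how members are averaged.

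The rRNAs of the mitochondrial ribosome were not higher by the test with GATA2 overexpression. MT-RNR1, the small subunit rRNA gene, was at 2958, 2930 and 2951 CPM in CD90+ control and 3479, 2942 and 2980 CPM with GATA2 overexpression (not called, adjusted p = 0.0911). MT-RNR2, the large subunit rRNA gene, was at 26875, 26873 and 27132 CPM and then 23134, 20269 and 20279 CPM, 1.27-fold lower (adjusted p = 7.13e-07). Counts of both rRNAs over counts of the members were 5.06 to 5.18 in CD38+ control, 5.99 to 6.11 in CD90+ control and 2.61 to 3.07 in overexpressing libraries, which do not overlap (exact permutation p = 0.1 for each pair, the smallest possible). The sources used here do not give how rRNA was handled in library preparation.

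The other protein genes of the ribosome without MRP symbols were DAP3, CHCHD1, AURKAIP1, PTCD3 and GADD45GIP1. All 5 rose with GATA2 overexpression (log2 fold changes of 0.56, 0.76, 0.79, 0.44 and 0.83), while 38.0% of all tested genes rose and 39.6% fell. DAP3, a GTP-binding small subunit protein, went from 140, 134 and 131 to 206, 199 and 194 CPM. In CD90+ against CD38+ control cells 41.1% of all tested genes were higher and 39.3% lower. PTCD3 was higher there (0.66) and the other 4 were lower (-0.20 to -0.50). With library size only 4 of the 5 were called higher instead and 0 lower.

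Genes that build and serve the ribosome rose too when GATA2 was overexpressed, with medians near 0.42 beside 0.80 for the members, a difference that was not tested. Beside the counts that follow, 38.0% of all tested genes rose and 39.6% fell. Of 23 assembly factors 18 rose and MTG2, a GTPase of large subunit assembly, fell (median log2 fold change 0.42). TRUB2, a pseudouridine synthase acting on mitochondrial RNA, rose 1.95-fold and ERAL1, a chaperone of the small subunit rRNA, 1.44-fold. Of 17 translation factors 16 rose and 0 fell (median 0.43), with SLIRP, an RNA-binding partner of LRPPRC, 2.36-fold higher and the elongation factor TUFM 1.65-fold higher. Aminoacyl-tRNA synthetases rose in 11 of 17 cases (median 0.42), with YARS2 1.49-fold higher, and LARS2 and IARS2 fell (log2 fold changes of -0.32 and -0.095).

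Genes of mitochondrial DNA expression rose in 11 of 19 cases (median 0.32), while 38.0% of all tested genes rose and 39.6% fell. SSBP1, the mitochondrial single-strand DNA-binding protein, rose 2.37-fold, and POLG, the replicative polymerase, was the 1 gene of the list that fell (log2 fold change -0.87). MTG2, LARS2, IARS2 and POLG are named because they fell, after their values were seen. The medians for assembly factors, translation factors, synthetases and DNA expression genes were 0.18, 0.18, 0.17 and 0.07 with library size only. In CD90+ against CD38+ control cells these 4 lists had 15, 14, 14 and 11 genes higher and 5, 2, 1 and 4 lower. Their medians were 0.49, 0.41, 0.58 and 0.37 beside 0.02 for the members. Of all tested genes 41.1% were higher and 39.3% lower. MTERF3 and RPUSD4, assembly factors, were 2.53-fold and 2.60-fold higher in CD90+ control cells, and EARS2, the glutamyl-tRNA synthetase, 3.36-fold. FASTKD5, which takes part in processing mitochondrial RNA, was 3.05-fold lower.

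Among comparator groups, 75 of 77 cytosolic ribosomal protein genes rose and 1 fell with GATA2 overexpression (median 0.95). Of 64 nuclear genes of respiratory chain subunits 57 rose and 2 fell (median 0.78). The shares over all tested genes were 38.0% risen and 39.6% fallen. Mitochondrially encoded genes rose in 4 and fell in 8 of 16 cases (median -0.22). Between CD38+ and CD90+ control cells the respiratory chain list had 13 higher and 43 lower (median -0.31, which turned to 0.10 with library size only). The cytosolic list had 53 higher and 14 lower (median 0.25). The shares over all tested genes were 41.1% higher and 39.3% lower.

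**Figure D5:**
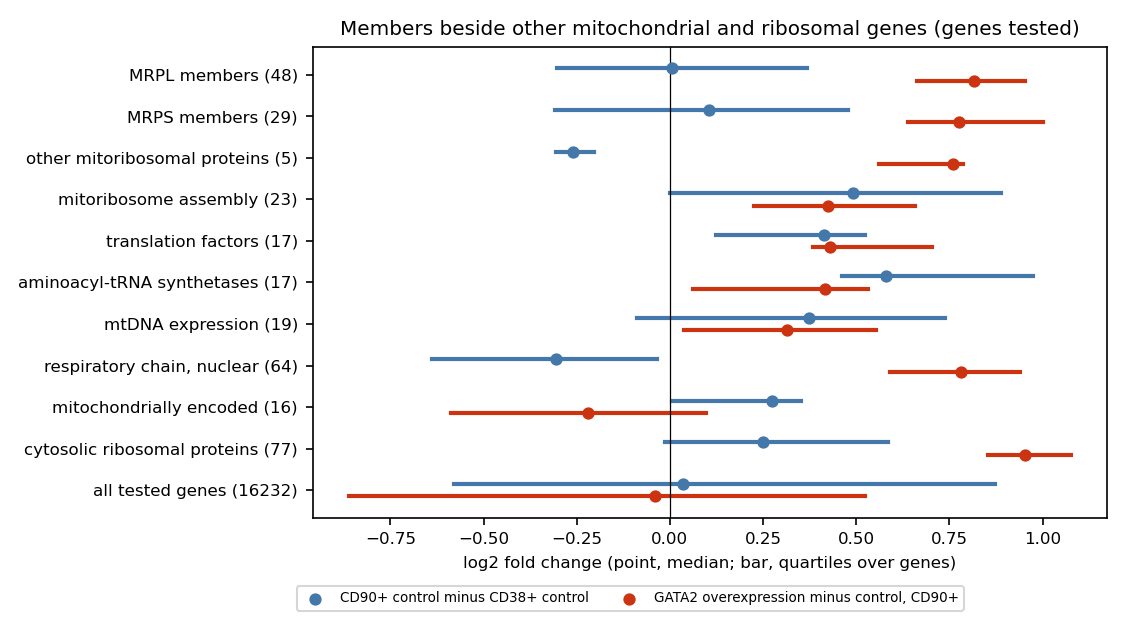
Median and quartiles over genes of the log2 fold change in each gene list, with the number of genes tested in brackets, for CD90+ control minus CD38+ control (blue) and GATA2 overexpression minus control within CD90+ cells (red). For the latter the MRPL and MRPS medians (0.82 and 0.78) lie near the respiratory chain (0.78) and cytosolic ribosomal protein medians (0.95) and above those of assembly factors (0.42), translation factors (0.43) and all tested genes (-0.04).

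Regulators of mitochondrial biogenesis changed in both directions, as did all tested genes. With GATA2 overexpression 6 of 12 rose and 5 fell, against 38.0% and 39.6% of all tested genes. Their median was 0.10, and -0.15 with library size only. MYCN, a MYC family transcription factor, went from 77.4, 78.1 and 78.9 to 244, 266 and 259 CPM, and MYC from 78.5, 75.4 and 76.3 to 164, 174 and 175 CPM. Their partner MAX rose 2.19-fold, GABPB1, a subunit of GABP, 1.88-fold, ESRRA 1.31-fold and YY1 1.18-fold, the last not called with library size only (log2 fold change -0.013). The co-activators PPARGC1A, PPARGC1B and PPRC1 fell (log2 fold changes of -1.67, -0.78 and -1.12), as did GABPA (-0.32) and SP1 (-0.20), and NRF1 was not called (-0.03) but was lower with library size only (-0.28). Between the control groups 4 of the 12 were higher in CD90+ cells and 7 lower, against 41.1% and 39.3% of all tested genes. The median was -0.22, which turned to 0.19 with library size only and 0.043 with upper-quartile factors. Members with and without an ETS motif had median log2 fold changes of -0.29 (28 genes) and 0.31 (40 genes) between control groups, and 0.77 and 0.80 with GATA2 overexpression. For the YY1 motif these were -0.04 (13 genes) and 0.10 (55 genes), and 0.89 and 0.77. For the NRF1 motif they were 0.31 (8 genes) and -0.02 (60 genes), and 0.89 and 0.76. All are given as a description, and values between control groups move with scaling.

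Markers of other cells and of division moved in the same libraries. Of all tested genes 38.0% rose and 39.6% fell with GATA2 overexpression over CD90+ control. In CD90+ against CD38+ control cells 41.1% were higher and 39.3% lower. In overexpressing against CD38+ cells 43.3% were higher and 39.9% lower. The summed level of 12 macrophage markers was 1737 to 1781 CPM in CD90+ control and 240 to 268 CPM in overexpressing libraries (0 rose and 10 of 11 tested fell), with C1QA at 0.477 to 0.761 CPM in the latter. That of 12 mesenchymal markers went from 1141 to 1159 CPM down to 284 to 303 CPM, and all 12 fell. That of 12 proliferation genes went from 1936 to 1949 CPM up to 3525 to 3558 CPM, and 11 rose and 1 fell. The 1 that fell was MKI67 (121 to 126 CPM down to 96.5 to 98.8 CPM). UBE2C made a large part of the summed rise (260 to 269 CPM up to 862 to 875 CPM). TOP2A moved little (233 to 234 CPM up to 245 to 261 CPM). In CD38+ cells the macrophage sum was 1373 to 1430 CPM, but its markers differed in opposite directions, 5 higher and 5 lower of 11 tested in CD90+ control cells (C1QA 15.8-fold higher, CD14 11.6-fold and VSIG4 11.7-fold lower). In the same CD38+ libraries the mesenchymal sum was 30.8 to 32.6 CPM and the proliferation sum 2922 to 2954 CPM. The sum of 10 mast cell and basophil markers was 5311 to 5551 CPM there, against 231 to 241 and 716 to 770 CPM in CD90+ control and overexpressing cells. CLC (3529 to 3821 CPM) and HDC (1286 to 1321 CPM) made up most of it in CD38+ cells. By gene, 2 of 9 tested were higher and 6 lower in CD90+ than in CD38+ control cells. With GATA2 overexpression all 9 rose over CD90+ control, and against CD38+ cells 4 were higher and 5 lower. The sum of 12 erythroid markers was 213 to 221, 832 to 857 and 444 to 524 CPM in the 3 groups, most of it HBE1 (178 to 186, 629 to 648 and 270 to 332 CPM). By gene, all 11 tested were higher in CD90+ than in CD38+ control cells, and 2 rose and 8 fell with GATA2 overexpression. The sum of 10 endothelial markers was 501 to 535, 479 to 487 and 774 to 809 CPM. The endothelial sums rest largely on PECAM1 and ESAM and differ from the counts of genes, since 7 of the 10 were higher and 1 lower in CD90+ than in CD38+ control cells (median log2 fold change 2.91), and 5 rose and 3 fell with GATA2 overexpression (median 0.09). C1QA, CD14, VSIG4, MKI67, UBE2C, TOP2A, CLC, HDC, HBE1, PECAM1 and ESAM are named after their values were seen. The part of these cells and of division in the members' changes was not tested.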

How the data were processed

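The authors' deposited table holds raw counts by gene symbol for 9 libraries, 3 per group. Per the labels' protocols, libraries were strand-specific with paired reads, and alignment (HISAT2) and counting (featureCounts) on hg38 are named in the submitters' processing notes. The sources used here do not give versions or counting settings.

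Counts were tested with edgeR 4.0.16 (R 4.3.3): TMM factors, filterByExpr (minimum count 10, minimum total 15), quasi-likelihood F-tests over 3 group means and Benjamini-Hochberg adjustment over 16232 genes at 0.05. SE is the log2 fold change over the square root of F. CPM use library size times TMM factor. Levels per length use GENCODE 29 exon unions, and a second ranking used the longest protein-coding transcript of the GENCODE 29 basic set. Positions are from GENCODE 29 on GRCh38. Replicate pairs differed beyond sampling noise (chi-square per degree of freedom of 3.96 to 7.84). The procedure was also run on simulated counts in which few genes differed between groups. Most genes were called in these data, so that run does not test the scaling.

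Named members were a list by role, the 5 largest rises and falls in each main comparison (3 in the third) among called members whose libraries do not overlap, up to 6 members not called, and the 5 highest and lowest per length. From the other lists the 2 genes of lowest adjusted p in each of the first 2 comparisons were eligible, and every gene of the 2 lists of other ribosomal proteins and biogenesis regulators. The members and lists were chosen with earlier results of these data known. Symbols MRPL58, MRM2, MRM3, RCC1L and TWNK were not analysed here. Alternatives were other scalings and filters, DESeq2 1.42.0, limma 3.58.1 (voom), a length and GC trend, 2-group fits, a replicate block, leaving out each library and leaving out members that overlap another gene.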

Additional observations from a re-analysis of the deposited data

How the results depend on the processing

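In GATA2 overexpression against control CD90+ cells, 66 to 74 members were called higher and 0 to 3 lower over all alternatives, the 0 coming from leaving out members that overlap another gene (chosen after the data were seen), with a median of 0.84. The median log2 fold changes, with main values of 0.02 for CD90+ against CD38+ control, 0.80 for overexpression against CD90+ control and 0.90 for overexpression against CD38+ control, were 0.43, 0.55 and 1.06 with library size only, 0.28, 0.68 and 1.05 with upper-quartile factors, and 0.10, 0.59 and 0.70 after removing a trend in exon length and GC. The first and second were 0.063 and 0.75 with RLE factors, 0.063 and 0.75 with DESeq2, and 0.093 and 0.70 for genes at 1 CPM in 3 libraries, and the first was 0.074 with only 2 groups. For CD90+ against CD38+ control, library size only gave 56 higher and 14 lower, and upper-quartile factors 18 lower. Leaving out 1 library gave medians of 0.013 to 0.085, 0.79 to 0.81 and 0.89 to 0.93.

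The large minus small subunit difference of medians (main -0.10, 0.04 and -0.08) was -0.059 for overexpression against control CD90+ cells in the length and GC fit, the opposite sign. Without overlapping members it was -0.037 for CD90+ against CD38+ control and -0.022 for overexpression against CD38+ control, and leaving out 1 library it was -0.135 to -0.062 for the first comparison (-0.062 without CD90+ control replicate 2), 0.0043 to 0.051 for the second (0.0043 without overexpression replicate 3 and 0.018 without CD90+ control replicate 1) and -0.126 to -0.041 for the third (-0.126 without overexpression replicate 3 and -0.041 without CD38+ control replicate 1). The cause of these shifts was not tested.

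Between CD90+ and CD38+ control, signs turned, with a call in at least 1 of the fits, with library size only for MRPS18A (0.10), MRPS34 (0.38), MRPS36 (0.10), MRPL23 (0.38), MRPS14 (0.39), MRPL16 (0.32), MRPS21 (0.35) and MRPL46 (0.26), with upper-quartile factors for MRPS34 (0.24), MRPS14 (0.24), MRPL16 (0.18) and MRPS21 (0.21), and in the length and GC fit for MRPL16 (0.0065). Against CD38+ control that fit turned the sign for MRPS16 (-0.16), MRPS36 (-0.11) and MRPL51 (-0.023) in overexpressing cells. Of the named members' values under alternatives, 1959 kept direction and call, 27 lost and 13 gained a call, and 62 turned sign, 16 of them named above and 46 called in neither fit (among them MRPL38 at 0.36 with library size only, from -0.04).

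Replicate numbers did not pair the libraries (correlations of deviations of -0.061 to 0.015). With a replicate block the members called were 36 higher and 28 lower, 74 and 2, and 62 and 9 in the 3 comparisons, and 12889, 12384 and 13347 of all genes. Members under 100 counts per library (MRPS24, MRPL38, MRPL53) are limited by depth.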
